A study of Mus musculus with 10 samples.

Results

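The peroxisome proliferator-activated receptors (PPARs) and the proteins that work with them were followed in 10 RNA sequencing libraries of mouse lung tumors. The 10 genes were chosen by name: the receptors Ppara, Ppard and Pparg, the retinoid X receptors Rxra and Rxrb, the oxysterol receptor Nr1h3, the coactivators Ppargc1a, Ppargc1b and Med1 and the corepressor Ncor1. Each had 1 row among the 39017 genes of the table, and 10 of 10 passed the filter on low counts.

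All mice were C57BL/6 and carried the alleles of the KP model of lung adenocarcinoma, p53 Fl/Fl among them. The 5 Control libraries, all male, have the genotype label heterozygous fl/wt, and the study's methods allow controls that were wild type or heterozygous for Slc2a1, which encodes Glut1, a glucose transporter. The 5 libraries labelled Glut1-KO are homozygous fl/fl (KPG1 mice), replicates 1 to 3 from females and replicates 4 and 5 from males. Cre came from an adenovirus with a CC10 promoter (Ad5CC10-Cre), placed in the trachea, so recombination starts in airway cells positive for CC10 and cells outside the tumor keep their alleles. Tumors were macrodissected 20 weeks and 1 day after initiation, dissociated and depleted of CD45-positive cells with magnetic beads, and polyadenylated RNA of the CD45- fraction was sequenced. The deposited names carry a further number, shared by Control replicates 1, 2 and 5, by Control replicates 3 and 4, and by replicates 4 and 5 labelled Glut1-KO, which no label explains. Nothing says that the 5 libraries of a group came from 5 mice, so p-values, which treat all 10 as independent, measure the spread between these libraries, which may be partly technical.

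PPARs are nuclear receptors that bind fatty acids and their derivatives, pair with an RXR on direct repeats in the DNA and switch on genes of lipid uptake, storage and oxidation. Without ligand, many of them hold corepressors such as NCoR1; with ligand, coactivators such as PGC-1α and the Mediator subunit MED1 take their place. In the lung, PPARγ is best known from alveolar macrophages and epithelial cells, and PPARα from tissues that burn fatty acids, such as liver and heart.

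Library totals ran from 35.3 to 49.8 M counts (M, mega). The floxed gene, Slc2a1 (ENSMUSG00000028645), was at 118, 86.7, 92.6, 103 and 73.2 CPM (counts per M after TMM scaling) in Control replicates 1 to 5. It was at 60.3, 42.5, 34.6, 92.4 and 103 CPM in the replicates 1 to 5 labelled Glut1-KO, so the female replicates 1 to 3 lay below all controls and the male replicates 4 and 5 lay among them. Since Slc2a1 RNA was at control level in replicates 4 and 5, the group is called "labelled Glut1-KO", and results are also given without them. These levels do not test the fl/fl genotype of the mice. The log2 fold change of Slc2a1 was -0.62 (SE 0.29, limma adjusted p = 0.658). Without replicates 4 and 5 labelled Glut1-KO it was -1.07 (SE 0.21, limma adjusted p = 0.147), and among male libraries alone 0.06. The epithelial list (6 genes, Epcam among them) summed to 3770 to 5230 CPM in the controls and 2980 to 7300 in the group labelled Glut1-KO, and the alveolar type 2 (AT2) list to 26800 to 73300 and 49700 to 66600 CPM. The club cell list, which reads expression and not descent from CC10-positive cells, summed to 2100 to 11900 and 3310 to 9610 CPM. The alveolar type 1 list summed to 1270 to 2160 and 1390 to 2770 CPM, and the ciliated cell list to 9.95 to 248 and 13.5 to 52.9 CPM. Endothelial genes summed to 130 to 475 and 192 to 620 CPM, fibroblast genes to 94.2 to 370 and 63.6 to 410 CPM and proliferation genes to 428 to 819 and 379 to 541 CPM. Of the endothelial genes 10 of 10 were higher in the group labelled Glut1-KO (median log2 difference 0.64; 0 called by limma or DESeq2), and of the ciliated cell genes 6 of 6 tested were lower (median -0.83; 0 called by limma, 1 by DESeq2, Foxj1 with adjusted p = 0.00764). With 1 library left out the endothelial median ran from 0.36 (without Control replicate 2) to 0.86 and the ciliated one from -1.57 (without Control replicate 2) to -0.29 (without Control replicate 5). Among male libraries alone 7 endothelial genes were higher and 3 lower (median 0.07), and without replicates 4 and 5 labelled Glut1-KO 2 ciliated genes were higher and 4 lower (median -0.49). In bulk RNA, fewer cells of a type and less RNA per cell cannot be told apart.

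None of the 10 members passed the test between Control and labelled Glut1-KO tumors. At an adjusted p under 0.05, limma called 0 of the 10 members, against 0% (0 of 15922) of all genes tested. At an unadjusted p under 0.05 it found 0 of 10 members against 7.68% of all genes, and 0 of 10 members had groups that did not overlap against 1.85% of all genes. The edgeR quasi-likelihood test called 0 members and 0 genes (0 members and 8.85% of genes at an unadjusted p under 0.05). DESeq2 called 0 members against 1.35% of all genes and gave 1 member, Ppara, an unadjusted p under 0.05 against 10.8% of all genes. On data simulated from these libraries, limma recovered 33.7% of genes changed 2-fold and 62.2% of genes changed 3-fold, so changes of such a size can be missed here.

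**Figure D1:**
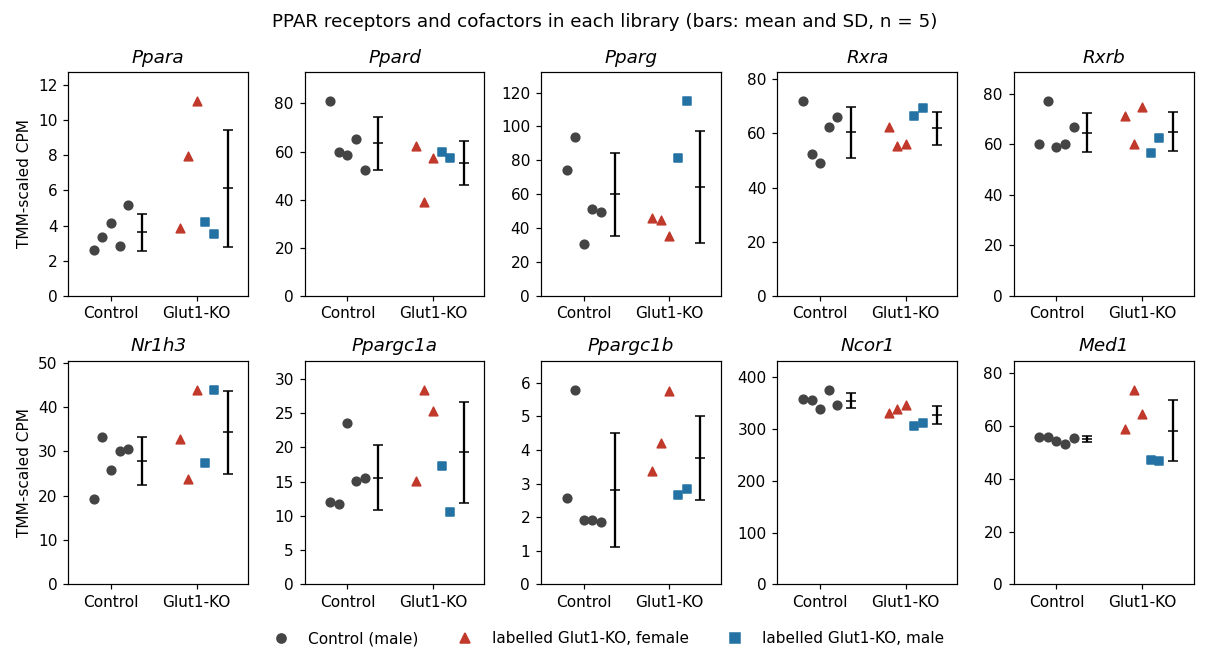
TMM-scaled CPM (vertical axis, from 0) of each of the 10 genes in each library: Control (grey circles, male), labelled Glut1-KO female (red triangles) and male (blue squares), with the mean and SD of each group of 5 as bars. The groups overlap in every panel; Ppara is highest in 2 female libraries labelled Glut1-KO (7.96 and 11.1 CPM), and Med1 spans 46.9 to 73.7 CPM in that group but 53.3 to 56.0 CPM in the controls.

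The 3 PPARs were present at very different levels. Divided by exon length (GENCODE M21, CPM per kb of exon), the controls had 20.3 ± 8.27 of Pparg, 8.44 ± 1.44 of Ppard and 0.944 ± 0.273 of Ppara (SD, n = 5). Among all 10 members Ncor1 was highest, at 27.7 ± 1.11 CPM per kb, and was followed by Pparg, Rxrb (16.2 ± 1.94), Rxra (11.1 ± 1.75), Nr1h3 (11.1 ± 2.17) and Ppard. Med1 (6.29 ± 0.129), Ppargc1a (2.37 ± 0.72), Ppara and Ppargc1b (0.705 ± 0.423) made up the lower end. Neighbors in that order overlapped in their control ranges except at 4 steps, namely Rxrb to Rxra, Ppard to Med1, Med1 to Ppargc1a and Ppargc1a to Ppara. The order was the same in the tumors labelled Glut1-KO, but for Nr1h3 (13.6 CPM per kb) standing above Rxra (11.3).

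**Figure D2:**
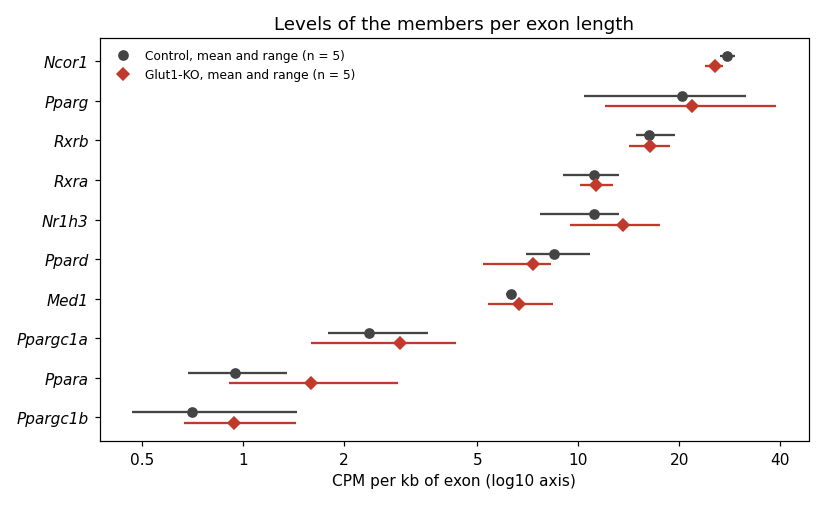
Level of each gene per exon length (horizontal log10 axis, CPM per kb of exon) as the mean (symbol) and range (line) of 5 Control libraries (grey circles) and 5 labelled Glut1-KO libraries (red diamonds). Genes run from Ncor1 (control mean 27.7) down to Ppargc1b (0.705), and the ranges of both groups overlap for every gene.

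Ppara (ENSMUSG00000022383; chr15:85734983-85802819, plus strand, GRCm38) encodes PPARα, the receptor that drives fatty acid oxidation in mitochondria and peroxisomes and ketone body formation. It stood at 2.63, 3.36, 4.12, 2.82 and 5.18 CPM in Control replicates 1 to 5, and at 3.85, 7.96, 11.1, 4.20 and 3.49 CPM in the replicates labelled Glut1-KO. Only replicates 2 and 3 of the latter, both female, lay above all controls, and the other 3 lay within the control range. The means were 3.62 ± 1.05 and 6.13 ± 3.33 CPM (SD, n = 5), a log2 fold change of 0.66 (SE 0.36, 95% interval -0.15 to 1.46; limma p = 0.099, adjusted p = 0.715; 2-sided exact permutation p = 0.135). DESeq2 gave 0.76 with an unadjusted p of 0.042 and an adjusted p of 0.428. Without replicates 4 and 5 labelled Glut1-KO the limma value was 1.01 (SE 0.38, adjusted p = 0.315), and without replicate 3 alone it was 0.39. Among male libraries alone and with sex as a covariate it was 0.11 (adjusted p = 0.936 and 0.95). At an unadjusted p under 0.05, Ppara was found without replicates 4 and 5 (with 13.8% of all genes) and without replicate 5 alone (10.4%). At an adjusted p under 0.05, 0 of 10 members were called without replicates 4 and 5, against 0.0548% of all genes.

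Ppard (ENSMUSG00000002250; chr17:28232700-28301474, plus strand) encodes PPARδ, a broadly expressed receptor of fatty acid use. Its levels were 81.0, 60.0, 58.5, 65.3 and 52.4 CPM in the controls and 62.3, 39.1, 57.1, 60.0 and 57.4 CPM in the group labelled Glut1-KO. Replicate 2 labelled Glut1-KO was the lowest of all 10 libraries, and Control replicate 1 the highest. The means were 63.4 ± 10.9 and 55.2 ± 9.27 CPM (SD, n = 5), a log2 fold change of -0.20 (SE 0.16, 95% interval -0.55 to 0.14; adjusted p = 0.78; exact permutation p = 0.302). Without that replicate 2 the fold change was -0.08, and among male libraries alone -0.10.

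Pparg (ENSMUSG00000000440; chr6:115360951-115490399, plus strand) encodes PPARγ, the receptor of fat storage and of alveolar macrophage identity. It was at 74.4, 93.7, 30.7, 51.3 and 49.5 CPM in the controls and at 45.9, 44.7, 35.3, 81.6 and 115 CPM in the group labelled Glut1-KO. The controls spanned a wide range, the 3 female libraries labelled Glut1-KO lay in its lower part, and of the 2 male ones replicate 4 lay above 4 controls and replicate 5 above all 5. The means of 59.9 ± 24.4 and 64.4 ± 33.1 CPM (SD, n = 5) gave a log2 fold change of 0.05 (SE 0.37, 95% interval -0.76 to 0.86; adjusted p = 0.983; exact permutation p = 0.873). Without replicates 4 and 5 labelled Glut1-KO the sign turned, to -0.42, whereas among male libraries alone and with sex as a covariate the value was 0.79 (adjusted p = 0.585 and 0.456). The defining adipocyte marker Adipoq averaged 0.059 CPM in the controls and 0.029 CPM in the group labelled Glut1-KO, and the adipocyte list summed to at most 8.2 CPM.

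**Figure D3:**
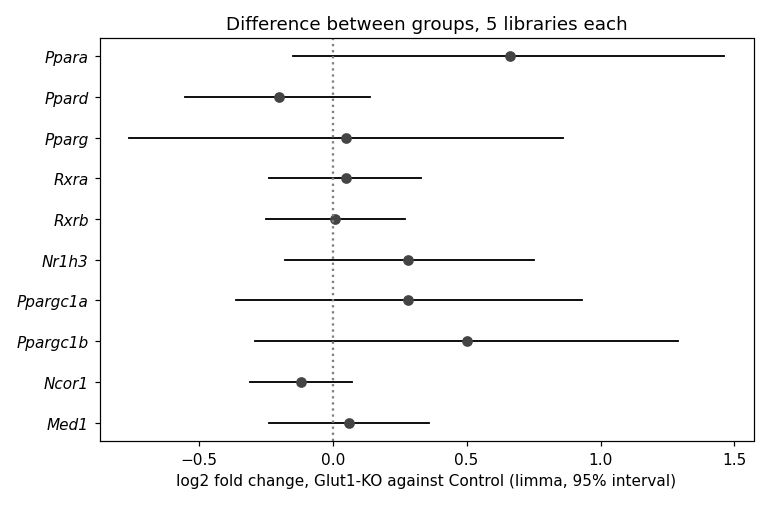
Log2 fold change of each gene, labelled Glut1-KO against Control (points, horizontal axis), with its 95% interval from limma (lines), 5 libraries per group. The 10 intervals include 0; those of Ncor1 (-0.31 to 0.07) and Rxrb (-0.25 to 0.27) are among the narrowest, and those of Pparg (-0.76 to 0.86) and Ppara (-0.15 to 1.46) the widest.

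The RXRs are the obligate partners of all PPARs and of the oxysterol receptors. Rxra (ENSMUSG00000015846; chr2:27676440-27762957, plus strand) was at 72.0, 52.4, 49.0, 62.3 and 66.2 CPM in the controls and 62.4, 55.4, 56.2, 66.3 and 69.5 CPM in the group labelled Glut1-KO, all of the latter within the control range. The log2 fold change was 0.05 (SE 0.13, 95% interval -0.24 to 0.33; adjusted p = 0.948; exact permutation p = 0.698). Rxrb (ENSMUSG00000039656; chr17:34031812-34038399, plus strand) was at 60.1, 77.1, 58.7, 59.9 and 66.8 CPM in the controls and 71.1, 60.0, 74.8, 56.6 and 62.6 CPM in the group labelled Glut1-KO. All but the lowest of the latter lay within the control range, with a log2 fold change of 0.01 (SE 0.12, 95% interval -0.25 to 0.27; adjusted p = 0.988; exact permutation p = 0.913). For both RXR genes the sign turned when single libraries were left out. The log2 ratio of Rxra to Rxrb was -0.10 ± 0.31 in the controls and -0.07 ± 0.26 in the group labelled Glut1-KO (SD, n = 5; exact permutation p = 0.849).

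Nr1h3 (ENSMUSG00000002108; chr2:91184061-91202834, minus strand) encodes LXRα, a receptor for oxysterols that pairs with RXR, is itself a PPARγ target in macrophages, and turns on cholesterol export and fatty acid synthesis. It was at 19.3, 33.3, 25.8, 30.1 and 30.5 CPM in the controls and at 32.8, 23.7, 43.9, 27.3 and 43.9 CPM in the group labelled Glut1-KO. Replicates 3 and 5 of the latter exceeded all controls, 1 female and 1 male, and replicate 2 lay near the low end. The means were 27.8 ± 5.45 and 34.3 ± 9.33 CPM (SD, n = 5), a log2 fold change of 0.28 (SE 0.21, 95% interval -0.18 to 0.75; adjusted p = 0.773; exact permutation p = 0.238). It was 0.16 without Control replicate 1 and 0.41 without replicate 2 labelled Glut1-KO. Markers of macrophages, which use LXRα, were also counted. Of the 16 listed, Adgre1, Chil3, Siglecf and Plet1 had no row under these symbols, and Ear1 and Marco fell below the filter on low counts. The other 10 were tested, and 9 of these had a log2 difference above 0, with a median of 0.88 over the 10. By limma 0 passed the threshold and 7 had an unadjusted p under 0.05 with a higher level, and DESeq2 called 4. Among male libraries alone the median was 0.45. The macrophage list summed to 57.8 to 96.7 CPM in the controls and 88.9 to 148 CPM in the group labelled Glut1-KO (105 to 148 in females, 88.9 to 99.5 in males). Its largest parts were Krt79, a keratin gene (means of 27.6 and 44.8 CPM), and Cd68 (17.5 and 21.2 CPM). All 10 general leukocyte genes were higher too, with a median log2 difference of 0.77. By limma 0 passed the threshold and DESeq2 called 5, and among male libraries alone 8 were higher and 2 lower. Their sums were 322 to 475 and 333 to 618 CPM, of which Lcp1 made up most (means of 325 and 407 CPM). Ptprc, the gene of CD45, was picked after its values were seen. It was at 2.3 to 3.26 CPM in the controls and 5.05 to 10.1 CPM in the group labelled Glut1-KO (limma adjusted p = 0.23, DESeq2 adjusted p = 1.96e-06). Across the 10 libraries Nr1h3 had r = 0.13 with the macrophage list (permutation p = 0.716, adjusted p = 0.903; rho 0.10; r = 0.46 without replicates 1 and 2 labelled Glut1-KO) and r = 0.00 with the leukocyte list (permutation p = 0.999; rho -0.31).

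The coactivators PGC-1α and PGC-1β, the products of Ppargc1a and Ppargc1b, bind PPARs and other receptors and promote mitochondrial biogenesis and fatty acid oxidation. Ppargc1a (ENSMUSG00000029167; chr5:51454250-51567726, minus strand) was at 12.0, 11.8, 23.5, 15.1 and 15.6 CPM in the controls and 15.1, 28.4, 25.3, 17.3 and 10.5 CPM in the group labelled Glut1-KO. Its values in replicates 2 and 3 of the latter were above all controls and its value in replicate 5 was the lowest of all. The means were 15.6 ± 4.76 and 19.3 ± 7.36 CPM (SD, n = 5), a log2 fold change of 0.28 (SE 0.29, 95% interval -0.36 to 0.93; adjusted p = 0.841; exact permutation p = 0.405). With 1 library left out it ran from 0.12 (without replicate 2 labelled Glut1-KO) to 0.50 (without replicate 5). Without replicates 4 and 5 labelled Glut1-KO the value was 0.57, and among male libraries alone the sign turned, to -0.19. Ppargc1b (ENSMUSG00000033871; chr18:61298136-61400431, minus strand) was at 2.58, 5.79, 1.93, 1.91 and 1.86 CPM in the controls and 3.36, 4.21, 5.75, 2.67 and 2.83 CPM in the group labelled Glut1-KO. Control replicate 2 was the highest of all, and the other 4 controls lay below the 5 libraries labelled Glut1-KO. The log2 fold change was 0.50 (SE 0.36, 95% interval -0.29 to 1.29; adjusted p = 0.77; exact permutation p = 0.19). Without Control replicate 2 the value was 0.83 (adjusted p = 0.448) and Ppargc1b had groups that did not overlap, as had 3.47% of all genes. Among male libraries alone the value for Ppargc1b was 0.09 and with sex as a covariate 0.10. Without replicates 4 and 5 labelled Glut1-KO it was 0.76 (limma adjusted p = 0.434), and without replicate 3 labelled Glut1-KO alone 0.32.

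Med1 (ENSMUSG00000018160; chr11:98152154-98193293, minus strand) encodes the Mediator subunit that liganded nuclear receptors, PPARs among them, contact to bring RNA polymerase to the promoter. It was at 55.8, 56.0, 54.5, 53.3 and 55.6 CPM in the controls, a coefficient of variation of 2.06%. In the group labelled Glut1-KO it was at 58.8, 73.7, 64.5, 47.0 and 46.9 CPM, a coefficient of variation of 19.8%. The 3 female libraries lay above all controls and the 2 male ones below all controls. Fitted over both, the log2 fold change was 0.06 (SE 0.13, 95% interval -0.24 to 0.36; adjusted p = 0.932; exact permutation p = 0.675). Without the 2 male libraries labelled Glut1-KO the limma value was 0.25 (adjusted p = 0.361), and among male libraries alone -0.23 (adjusted p = 0.557). Med1 then had groups that did not overlap in either case, as had 9.51% of all genes in the former and 17.1% in the latter.

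Ncor1 (ENSMUSG00000018501; chr11:62316426-62458541, minus strand) encodes the corepressor that recruits histone deacetylase to unliganded receptors. It was at 359, 357, 338, 376 and 347 CPM in the controls and at 332, 338, 346, 306 and 312 CPM in the group labelled Glut1-KO. All 5 libraries of the latter lay below the control mean, and 4 of them lay below the lowest control, replicate 2 only just. The means were 355 ± 14 and 327 ± 16.9 CPM (SD, n = 5), a log2 fold change of -0.12 (SE 0.09, 95% interval -0.31 to 0.07; limma adjusted p = 0.767). By the exact permutation test p was 0.0159, which takes no account of the 10 members tested, and the difference was 0.919-fold. Its groups did not overlap without Control replicate 3 (as for 2.64% of all genes) or without replicate 3 labelled Glut1-KO (2.39%). The log2 fold change was -0.06 without replicates 4 and 5 labelled Glut1-KO and -0.20 among male libraries alone. Both male libraries labelled Glut1-KO (306 and 312 CPM) were under all 5 controls, which among male libraries alone made Ncor1 and Med1 the 2 members whose groups did not overlap, where 17.1% of all genes did not. Of the dissociation stress genes 12 of 12 were lower in the group labelled Glut1-KO (median log2 difference -0.35), but without replicates 4 and 5 of that group 8 were lower and 4 higher (median -0.22), and among male libraries alone the median was -0.76. By limma 0 passed the threshold and 5 had an unadjusted p under 0.05, and DESeq2 called 2 (Atf3 and Jun). They summed to 6040 to 8160 CPM in the controls and to 3890 to 6570 CPM in the group labelled Glut1-KO, where the male libraries had 3890 and 4410 CPM. Across the 10 libraries Ncor1 had r = 0.73 with this list (permutation p = 0.0171, adjusted p = 0.255; rho 0.58, adjusted p = 0.479). It was 0.81 without Control replicate 3 and replicate 5 labelled Glut1-KO, and 0.73 in the 7 male libraries (exact permutation p = 0.0669). With the macrophage list Ncor1 had r = -0.54 (permutation p = 0.11, adjusted p = 0.443) and rho = -0.78 (permutation p = 0.0106, adjusted p = 0.168), and r = -0.76 without replicates 1 and 2 labelled Glut1-KO. Exons of Ncor1 share 82 bases (0.64%) with Pigl on the opposite strand.

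Male and female libraries labelled Glut1-KO (3 female, 2 male) were set side by side after the values had been seen. They did not overlap for 5 of 10 members, against 40.9% of all genes. Pparg and Rxra were higher in the male ones (20.3% of all genes), and Ppargc1b, Ncor1 and Med1 in the female ones (20.6%). Some marker lists split as well, whereas the AT2 sums overlapped. In the female and male ones, epithelial genes summed to 2980 to 4000 and 5050 to 7300 CPM. Alveolar type 1 genes summed to 2140 to 2770 and 1390 to 1880 CPM, and proliferation genes to 489 to 541 and 379 to 465 CPM. Dissociation stress genes summed to 5770 to 6570 and 3890 to 4410 CPM. Sex, the level of Slc2a1 and the number shared in the deposited names (replicates 4 and 5 carry the same one) cannot be told apart in this contrast. Nor can these marker differences be told apart from them.

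To see whether the balance of coactivator and corepressor moved, ratios were formed within each library. The log2 ratio of Ppargc1a to Ncor1 was -4.56 ± 0.44 in the controls and -4.17 ± 0.53 in the group labelled Glut1-KO (SD, n = 5; difference 0.39, exact permutation p = 0.206). For Med1 to Ncor1 the ratios were -2.68, -2.67, -2.63, -2.82 and -2.64 in the controls and -2.50, -2.20, -2.42, -2.70 and -2.74 in the group labelled Glut1-KO. The difference in that ratio was 0.18 (exact permutation p = 0.119), with the female libraries above all controls and the male ones within the control range. Between receptors, the log2 ratio of Ppara to Ppard was -4.15 ± 0.62 and -3.31 ± 0.90 (SD, n = 5; difference 0.85, exact permutation p = 0.143). That of Ppara to Pparg was -3.99 ± 0.88 and -3.41 ± 1.35 (difference 0.58, exact permutation p = 0.46), and this difference was 0.14 without replicate 3 labelled Glut1-KO and 0.99 without replicate 5. With 1 library left out the difference for Ppargc1a to Ncor1 ran from 0.24 to 0.57, that for Med1 to Ncor1 from 0.10 to 0.24 and that for Ppara to Ppard from 0.59 to 1.05. Among male libraries alone the differences for Med1 to Ncor1 and for Ppara to Pparg changed sign. The male libraries labelled Glut1-KO had -4.15 and -4.89 for Ppargc1a to Ncor1 and -3.83 and -4.04 for Ppara to Ppard, all within the control ranges. None of the 5 ratios passed the test (Benjamini-Hochberg adjusted p of 0.344 to 0.849).

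Ppara levels went with those of Ppargc1a across the 10 libraries. On log2 values Pearson's r was 0.79 (permutation p = 0.00634) and Spearman's rho 0.83 (permutation p = 0.00498), and both missed the threshold after adjustment over the 95 relations computed (adjusted p = 0.124 and 0.107). Without replicates 2 and 3 labelled Glut1-KO, which had most of both, r was 0.50, and in the 7 male libraries it was 0.49 (exact permutation p = 0.263), lower than over all 10. The windows of 250 bases before the start sites of this pair are shown because their levels varied most alike (RefSeq, GRCm38.p6, with 15 windows found for 9 of the 10 members). The Ppara window is before the RefSeq start site used, but inside the gene as given above, which starts at 85734983. Ppara lies at chr15:85735526-85735775 on the plus strand and Ppargc1a at chr5:51567726-51567975 on the minus strand, both written 5′ to 3′ along the gene:
Ppara: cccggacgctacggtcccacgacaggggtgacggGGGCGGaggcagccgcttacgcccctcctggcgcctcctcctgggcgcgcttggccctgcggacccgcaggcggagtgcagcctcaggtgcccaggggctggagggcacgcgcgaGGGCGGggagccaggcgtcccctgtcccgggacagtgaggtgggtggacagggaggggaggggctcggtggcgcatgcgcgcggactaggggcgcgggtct
Ppargc1a: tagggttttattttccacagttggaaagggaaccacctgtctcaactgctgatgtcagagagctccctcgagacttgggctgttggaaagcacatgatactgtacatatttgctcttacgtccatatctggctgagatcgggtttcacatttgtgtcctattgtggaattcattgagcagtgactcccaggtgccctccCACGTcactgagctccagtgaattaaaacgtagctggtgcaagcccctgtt
Capitals mark 2 GC boxes (GGGCGG, read on both strands) in Ppara and 1 hypoxia response core (ACGTG, here on the other strand and so spelled CACGT) in Ppargc1a. GC content was 76.4% in the former and 48.0% in the latter, against a median of 52.4% over 32851 windows. A GC box was in 32.7% of all windows and in 9 of the 15 member windows (7 members), and ACGTG was in 16.6% of all windows and in 4 of the 15 (Ppargc1a, Ncor1, Ppard and Rxrb). The hexamer AGGTCA, which PPARs and RXRs recognize, was found in 3 of the 15 (Rxra and Pparg) and in 14.0% of all windows, which were searched on both strands. Its direct repeat AGGTCANAGGTCA was in 0 member windows and 0.0335% of all, and the cAMP response element TGACGTCA in 0 member windows and 1.55% of all. No match says only that these letters are not in this window.

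Ppara and Ppard varied in opposite ways. Pearson's r was -0.68 (permutation p = 0.0365, adjusted p = 0.315) and rho -0.85 (permutation p = 0.00267, adjusted p = 0.107). Without replicates 2 and 3 labelled Glut1-KO r was -0.84, and in the 7 male libraries it was -0.85 (exact permutation p = 0.0105).

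Pparg varied the opposite way to Ppargc1a. Pearson's r was -0.81 (permutation p = 0.00552, adjusted p = 0.124) and rho -0.82 (adjusted p = 0.107). Without Control replicate 2 and replicate 5 labelled Glut1-KO r was -0.66, and in the 7 male libraries it was -0.85 (exact permutation p = 0.0167). Against the mean log2 level of AT2 genes, the surfactant-producing cells, Pparg had r = -0.79 (permutation p = 0.00394, adjusted p = 0.124), rho = -0.85 (adjusted p = 0.107), -0.69 without the same 2 libraries and -0.74 in male libraries (exact permutation p = 0.0536). The 2 libraries with most Pparg, Control replicate 2 (93.7 CPM) and replicate 5 labelled Glut1-KO (115 CPM), had the 2 lowest AT2 sums, 26800 and 49700 CPM. Of all 95 relations, 0 had an adjusted p under 0.05 by r or by rho.

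Ppara was also set against Slc2a1, a relation added after the values had been seen. Libraries with less Slc2a1 had more Ppara: Pearson's r was -0.93 (permutation p = 0.00056, adjusted p = 0.0532 over the 95 relations) and rho -0.83 (permutation p = 0.00476, adjusted p = 0.107). Only 24 of 15922 genes (0.151%) had an r as low. Without replicates 2 and 3 labelled Glut1-KO, which had the least Slc2a1 (42.5 and 34.6 CPM) and the most Ppara, r was -0.65 (exact permutation p = 0.0806, 8 libraries). In the 7 male libraries alone r was -0.87 (exact permutation p = 0.0125); there Ppara ran from 2.63 CPM at 118 CPM of Slc2a1 to 5.18 CPM at 73.2 CPM of Slc2a1, both in controls. Leaving out 1 library at a time gave r between -0.97 and -0.86. No r is given for the 3 female libraries or within a group of 5, since at least 6 libraries were asked for.

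The relations of Med1 and Ppargc1a to Slc2a1 were of the same sign. For Med1 r was -0.80 (permutation p = 0.00654, adjusted p = 0.124) and rho -0.72 (adjusted p = 0.324), with 2.93% of all genes as low. Without replicates 2 and 3 labelled Glut1-KO it was -0.46, and in male libraries -0.18 (exact permutation p = 0.673), where 5 of the 7 are controls with nearly the same Med1 level. Ppargc1a had r = -0.72 (permutation p = 0.0188, adjusted p = 0.255), rho = -0.64, -0.25 without the same 2 libraries and -0.32 in males (exact permutation p = 0.487), with 5.93% of all genes as low. Ppard had r = 0.63 (permutation p = 0.0504, adjusted p = 0.334), rho = 0.65, 0.53 without the same 2 libraries and 0.84 in males (exact permutation p = 0.0246), with 11.6% of all genes as high. The other 6 members had r between -0.61 (Ppargc1b) and 0.56 (Pparg).

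**Figure D4:**
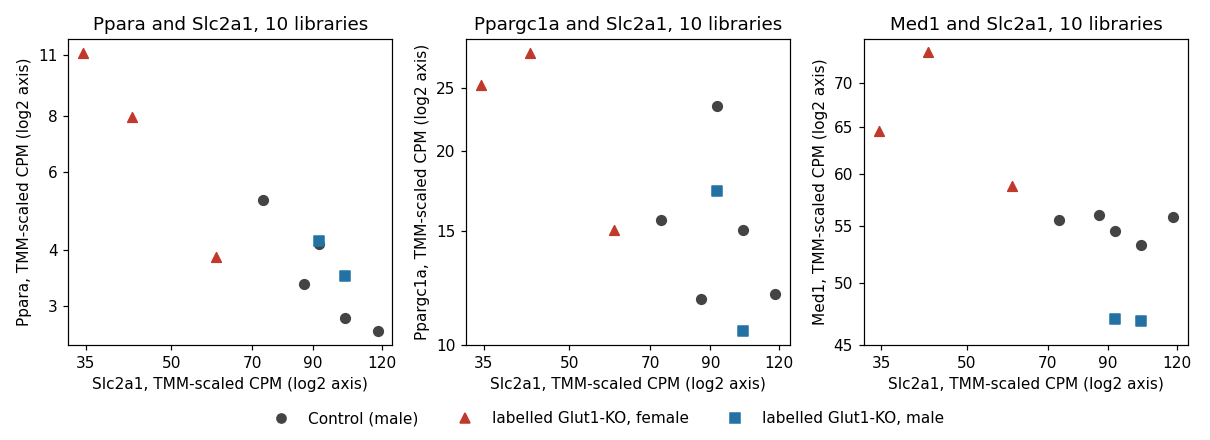
Level of Ppara, Ppargc1a and Med1 (vertical log2 axes) against Slc2a1 (horizontal log2 axes), all in TMM-scaled CPM, 1 point per library: Control (grey circles), labelled Glut1-KO female (red triangles) and male (blue squares). Replicates 2 and 3 labelled Glut1-KO stand apart at 42.5 and 34.6 CPM of Slc2a1, and the male libraries alone still fall from left to right for Ppara (r = -0.87), with r = -0.18 for Med1.

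The genes around the members were read from lists of known partners and targets. Over all 15922 genes, 49.3% were higher in the group labelled Glut1-KO and the median log2 difference was 0, and in each of the 6 lists limma and DESeq2 called 0 genes. Of 23 partners and modifiers of the PPAR machinery, 22 were tested, 11 were higher and 11 lower (median log2 difference -0.01). The smallest p in it belonged to Sirt1, a deacetylase that acts on PGC-1α, at 65.9 ± 8.22 CPM in the controls and 49.0 ± 8.92 CPM in the group labelled Glut1-KO (SD, n = 5; log2 fold change -0.44, SE 0.15, limma adjusted p = 0.531). Gps2 and Tbl1x, subunits of the NCoR complex, had log2 fold changes of -0.27 (adjusted p = 0.723) and -0.21 (adjusted p = 0.73).

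PPARα targets had more differences above 0 than below it, and none passed the test. Of 33 listed, 28 were tested, 19 were higher and 9 lower (median log2 difference 0.15), 4 of them at an unadjusted p under 0.05, where the background for higher genes is 3.66%. That count was 2 with library totals in place of TMM, and it was 2 without Control replicate 1, 4 or 5 and without replicate 2 or 4 labelled Glut1-KO. It was 3 without Control replicate 2 or replicate 3 labelled Glut1-KO. Without Control replicate 3, or replicate 1 or 5 labelled Glut1-KO, it stayed at 4. The median ran from 0.12 to 0.21 with 1 library left out. Among male libraries alone 31 were tested, 22 higher and 9 lower (median 0.17), with 3 higher at an unadjusted p under 0.05 by limma. Acaa2, the thiolase of mitochondrial β-oxidation, was at 123 ± 18.6 CPM in the controls and 163 ± 17 CPM in the group labelled Glut1-KO (SD, n = 5; log2 fold change 0.41, SE 0.13, limma adjusted p = 0.449). Hsd17b4, a peroxisomal β-oxidation enzyme, had 0.32 (adjusted p = 0.627) and Hadha, of the mitochondrial trifunctional protein, 0.25 (adjusted p = 0.635). Among other well-known targets, Cpt1a, which admits fatty acids to mitochondria, had 0.33 (adjusted p = 0.664), Pdk4, a brake on glucose oxidation, -0.54 (adjusted p = 0.82) and Plin2, a lipid droplet coat protein, 0.00 (adjusted p = 0.999). These 3 were chosen after their values were seen. The summed level of the PPARα targets was 1760 to 2150 CPM in the controls and 2110 to 2300 CPM in the group labelled Glut1-KO.

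Of 18 PPARγ targets 13 were tested, with 9 higher and 4 lower (median log2 difference 0.24), and without replicate 5 labelled Glut1-KO that median was 0.01. G0s2, an inhibitor of lipolysis, had a log2 fold change of 0.80 (SE 0.31, limma adjusted p = 0.599), Cebpa, a transcription factor of fat and lung epithelium, 0.31 (adjusted p = 0.616) and Cidea, a lipid droplet protein at about 1 CPM, -1.42 (adjusted p = 0.665). LXR targets, which Nr1h3 governs, numbered 15 with 14 tested, 12 higher and 2 lower (median log2 difference 0.34), and without Control replicate 2 the list had 10 higher and 4 lower with a median of 0.14. Lpcat3, which puts polyunsaturated chains into phospholipids, was at 132 ± 27.9 CPM in the controls and 178 ± 26.3 CPM in the group labelled Glut1-KO (SD, n = 5; log2 fold change 0.45, SE 0.16, limma adjusted p = 0.554). Abcg8, a sterol exporter, had a log2 fold change of 2.18 (limma adjusted p = 0.644). Its levels were low, 0.0253 to 1.41 CPM in the controls and 0.226 to 3.5 CPM in the group labelled Glut1-KO. Apoe, an apolipoprotein that macrophages also make, had 1.08 (adjusted p = 0.723). Among male libraries alone the LXR list had 8 higher and 6 lower.

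Of 14 PGC-1 target symbols 13 were tested, 8 higher and 5 lower (median log2 difference 0.10). Atp5f1b, another symbol of the tested Atp5b, had no row. That median ran from 0.01 (without replicate 3 labelled Glut1-KO) to 0.11 (without Control replicate 1) as 1 library was left out. Idh3a of the tricarboxylic acid cycle had a log2 fold change of -0.45 (limma adjusted p = 0.677), Ndufs1 of respiratory complex I 0.20 (adjusted p = 0.677) and Tfam, which maintains mitochondrial DNA, -0.19 (adjusted p = 0.756). Of 12 genes that carry or make ligands, 8 were tested, 3 higher and 5 lower (median log2 difference -0.25). Crabp2, a retinoic acid carrier, had -0.43 (adjusted p = 0.789), and the retinoid enzymes Rdh10 and Aldh1a3 had -0.39 (adjusted p = 0.806) and -0.79 (adjusted p = 0.822). That median turned to 0.47 among male libraries alone and was -0.55 without replicates 4 and 5 labelled Glut1-KO. With 1 library left out it ran from -0.39 (without replicate 5 labelled Glut1-KO) to -0.12 (without Control replicate 2).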

How the data were processed

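Polyadenylated RNA of CD45- lung tumor fractions was sequenced as stranded single-end libraries. The submitters' processing notes name bcl2fastq 2.17, cutadapt 1.4.2, HISAT2, featureCounts 1.4.4, edgeR and build mm10. Use of strand in counting and the annotation release were not given in the sources used here, so reads of overlapping genes could be shared. The deposited values are raw counts per gene, made by the authors with no normalization; a further deposited table of log2 values was not used.

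Genes were kept by edgeR 4.0.16 filterByExpr (minimum count 10, minimum total 15; 15922 genes), scaled by TMM, and passed through voom with a prior count of 0.5 to limma 3.58.1 (R 4.3.3), in a model holding the group alone. TMM, voom and limma are also named in the study's methods, which filtered by TPM. P-values were adjusted by Benjamini-Hochberg over all genes (threshold 0.05). Single members also had a 2-sided exact permutation test over 252 assignments (smallest possible p 0.00794). Correlations across 10 libraries used 100000 permutations, and those across 7 or 8 libraries every one (scipy 1.17.1). Totals were 35.3 to 49.8 M counts per library, with 104 to 496 counts for Ppara and 75 to 312 for Ppargc1b. Fits were tested on simulated data. Alternatives were DESeq2 1.42.0, edgeR's quasi-likelihood test, other scalings, no filter, quality weights, sex, subsets of libraries and blocks.

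The members, the 6 pathway lists and the 12 marker lists were chosen with earlier results of these data known. All 10 members are named, with up to 3 genes per pathway list by the smallest limma p and the summed level of each marker list; genes outside this rule are said to be so or serve as markers. Some items are not reported here.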

Additional observations from a re-analysis of the deposited data

Results flagged for a closer look

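In 7 of 66 groups of 5 values examined, 1 library stood apart from the other 4, its gap to the nearest exceeding 0.71 of the range; chance gives about 1 in 20 such groups, here 3.3. Ppard was at 39.1 CPM in replicate 2 labelled Glut1-KO, below the 57.1 to 62.3 CPM of the others. Ppargc1b was at 5.79 CPM in Control replicate 2 against 1.86 to 2.58 CPM in the other controls. The log2 ratio of Med1 to Ncor1 was -2.82 in Control replicate 4 against -2.68 to -2.63. Among the marker lists, ciliated cell genes summed to 52.9 CPM in replicate 1 labelled Glut1-KO (others 13.5 to 24.7 CPM). The adipocyte list summed to 2.13 CPM in Control replicate 2 (others 0.253 to 0.716 CPM) and to 8.2 CPM in replicate 5 labelled Glut1-KO (others 0.135 to 1.27 CPM). Nearly all of both sums was Cidec (1.93 and 8.13 CPM), also a PPARγ target by the list used here, and Adipoq was at most 0.148 CPM in any library. Proliferation genes summed to 819 CPM in Control replicate 2, against 428 to 474 CPM in the other controls.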

How the results depend on the processing

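Over 21 alternatives for each member (210 values), 0 members passed the threshold (adjusted p of 0.315 to 0.999), 191 fold changes kept their sign and 19 turned. Sex as a covariate turned Rxrb (-0.11), Ppargc1a (-0.18), Med1 (-0.23) and Slc2a1 (0.06). Male libraries alone turned Rxrb (-0.11), Ppargc1a (-0.19), Med1 (-0.23), Slc2a1 (0.06) and the log2 ratios of Med1 to Ncor1 (-0.03) and Ppara to Pparg (-0.67). Without replicates 4 and 5 labelled Glut1-KO, Pparg (-0.42), Rxra (-0.04) and the ratio of Rxra to Rxrb (-0.14) turned. The cause was not tested. Without the same replicates 4 and 5 the fold changes of Ppard (-0.27), Nr1h3 (0.25) and Rxrb (0.09) kept their sign. Leaving out 1 library at a time gave ranges of -0.19 to 0.25 for Pparg, -0.02 to 0.11 for Rxra, -0.04 to 0.08 for Rxrb, -0.03 to 0.14 for Med1 and -0.08 to 0.13 for the ratio of Rxra to Rxrb. Members with an unadjusted p under 0.05 numbered 1 with DESeq2 (Ppara; 10.8% of all genes), 1 with sample quality weights (Ppargc1b; 11% of all genes), 2 without replicates 4 and 5 labelled Glut1-KO (Ppara and Med1; 13.8%) and 0 to 1 with 1 library left out (Ppargc1b without Control replicate 2, 8.92%; Ppara without replicate 5 labelled Glut1-KO, 10.4%). Members whose groups did not overlap numbered 2 among males (Ncor1 and Med1, with 17.1% of all genes) and 1 without replicates 4 and 5 labelled Glut1-KO (Med1, 9.51%). With 1 library left out they numbered 0 to 1. These were Ppargc1b without Control replicate 2 (3.47%) and Ncor1 without Control replicate 3 (2.64%) or without replicate 3 labelled Glut1-KO (2.39%).

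Replicate numbers did not pair the samples (same-number correlations of -0.132 to 0.197, only number 4 correlating best with its own). With the replicate number as a block, 0 genes were called, 1156 had an unadjusted p under 0.05 against 1223 without it, 0 members passed, and Ppara had 0.72 (adjusted p = 0.689), Ncor1 -0.12 (adjusted p = 0.793) and Slc2a1 -0.61 (adjusted p = 0.686). It changed no member's call. With the number shared in the deposited names as a correlated block, 0 genes were called and Ppara had 0.67 (adjusted p = 0.798). Ppara (104 to 496 counts per library) and Ppargc1b (75 to 312) had the fewest counts; counting error and spread between libraries were not separated.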
